A study of Mus musculus with 2 samples.

Results

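Expression of the phagocyte NADPH oxidase genes Cybb, Cyba, Ncf1, Ncf4 and Rac2 was examined across the cell classes of mouse bone marrow. The members were taken by gene symbol, as the rule uses no measured value, and all 5 were present among the 32286 features of the count matrices. Bone marrow hematopoietic cells had been sequenced as single cells in droplets, counting mRNA from its 3′ end. The series holds 2 libraries, a control of the genotype Mx1Cre+/-;Rosa26+/+ and a MYC library of the genotype Mx1Cre+/-;Rosa26LSL-MYC/LSL-MYC, so each group is 1 library. Both thus carry 1 allele of Mx1-Cre, a Cre recombinase under an interferon-inducible promoter, and they differ in LSL-MYC, a silenced MYC transgene that Cre switches on by excising the stop sequence before it, which the MYC genotype carries on both Rosa26 alleles. Mx1-Cre is active in many blood cell lineages and outside the marrow, so recombination need not be limited to the haematopoietic stem cells named in the study's question. The age of the mice, the number of animals per library and any treatment to induce Cre are not given in the sources used here. With 1 library per group nothing was tested, genotype and library preparation cannot be told apart, and each interval below is a 95% interval for counting error only.

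The phagocyte oxidase makes superoxide by passing electrons from NADPH in the cytosol to oxygen in the phagosome or outside the cell, and neutrophils, monocytes and macrophages use it to kill microbes. Its catalytic core is a membrane cytochrome of the proteins gp91phox (from Cybb) and p22phox (from Cyba), which stabilise each other. On activation, cytosolic proteins that include p47phox (Ncf1) and p40phox (Ncf4) move from the cytosol to this core together with the GTPase Rac2, and loss of the core or of a cytosolic phox protein causes chronic granulomatous disease.

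Depth was 131884603 unique molecular identifiers (UMIs) over 17073 barcodes for the control, and 110012176 over 14496 for the MYC library. After filters 14760 and 12645 cells were kept, with medians of 5321.5 and 6014 UMIs per cell, and 77 of the kept barcodes occurred in both libraries. The feature MYC, in capitals and separate from mouse Myc, was taken as the transgene and had 0 UMIs in the control (upper limit 0.0308 CPM) and 295 UMIs (2.87 CPM, UMIs per 1000000) in the MYC library. Cells were grouped into 27 clusters and named from marker genes, and 14 classes with at least 50 cells in each library were compared. Names such as neutrophil or monocyte stand for neutrophil-like and monocyte-like clusters. The neutrophil classes were made of different clusters in the libraries. Of immature neutrophils, cluster 1 held 1495 control and 896 MYC library cells and cluster 5 held 164 and 1426. Of mature neutrophils, clusters 2 and 6 held 1773 and 1438 of the 3566 control cells, whereas cluster 4 held 1416 of the 1894 cells of the MYC library. Of the barcodes, 2461 control and 2612 MYC library barcodes fell into a cluster with a median of 0.134 of its libraries' UMIs per cell, which stayed unnamed and outside the classes.

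Cybb (ENSMUSG00000015340) lies on GRCm38 chromosome X, 9435252 to 9487771, and Cyba (ENSMUSG00000006519) on chromosome 8, 122424776 to 122432930. Ncf1 (ENSMUSG00000015950) lies on chromosome 5, 134220053 to 134229625, and Ncf4 (ENSMUSG00000071715) and Rac2 (ENSMUSG00000033220) both on chromosome 15, 78244801 to 78262580 and 78559167 to 78572783. All are protein-coding, and all but Ncf4 are on the minus strand. Another gene overlaps Cyba (Gm20388) and Ncf1 (Gtf2ird2) on the opposite strand, so counts of these 2 members could hold reads of the partner wherever strand was not used in counting. Cybb is X-linked, and both libraries held Xist UMIs (713 and 555 CPM) and between 0 and 8 UMIs of each of 4 Y-linked genes. Promoter windows of 250 bases before to 50 after the RefSeq start (GRCm38.p6) were matched for 3 members, and none was at hand for Ncf4 and Rac2. In the comparison below Cybb and Cyba, whose proteins form the cytochrome, stood on opposite sides while Ncf1 stood with Cybb. A link between these windows and the levels was not tested. All 3 are on the minus strand and are written 5′ to 3′, at chrX:9469275-9469574 for Cybb, chr8:122432891-122433190 for Cyba and chr5:134229576-134229875 for Ncf1, and capitals mark matches to GAGGAA, the core motif of the myeloid factor PU.1, on either strand.
Cybb: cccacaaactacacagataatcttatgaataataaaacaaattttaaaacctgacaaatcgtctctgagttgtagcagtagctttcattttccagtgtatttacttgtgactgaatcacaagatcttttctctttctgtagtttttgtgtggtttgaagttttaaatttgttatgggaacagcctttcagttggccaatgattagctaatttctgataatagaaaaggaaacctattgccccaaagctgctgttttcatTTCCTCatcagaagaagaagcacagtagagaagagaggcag
Cyba: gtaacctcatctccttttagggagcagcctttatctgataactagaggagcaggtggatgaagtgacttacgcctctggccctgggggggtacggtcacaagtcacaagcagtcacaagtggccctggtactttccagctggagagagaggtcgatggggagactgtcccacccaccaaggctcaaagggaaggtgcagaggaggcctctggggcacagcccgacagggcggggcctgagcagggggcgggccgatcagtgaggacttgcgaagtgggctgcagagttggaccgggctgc
Ncf1: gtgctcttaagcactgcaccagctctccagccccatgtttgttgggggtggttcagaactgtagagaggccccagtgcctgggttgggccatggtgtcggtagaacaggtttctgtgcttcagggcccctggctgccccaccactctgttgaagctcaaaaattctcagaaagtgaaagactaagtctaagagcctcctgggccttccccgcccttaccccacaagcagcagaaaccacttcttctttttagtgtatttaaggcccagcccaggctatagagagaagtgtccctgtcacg
The only match among the 3 windows is in Cybb, at bases 260 to 265 of the window on the opposite strand, just downstream of the annotated start. The same letters occur in 28.3% of 32851 RefSeq windows of this length. The E-box CACGTG, which MYC binds, was in none of the 3 and in 7.15% of all windows, and the C/EBP core TTGCNNAA in none of the 3 and in 10.8%. Both strands were searched for each motif, and a match is a description of letters, not of binding. The Cybb window was 35.3% G or C, against 60.7% for Cyba and 54% for Ncf1.

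Levels are UMIs of a gene per 1000000 UMIs of the class (CPM). Levels of the members are compared between classes and libraries, not between genes. Genes of the lists below are ranked by CPM only to choose which to name. The neutrophil lineage, here granulocyte progenitors with immature and mature neutrophils (6816 control and 5971 MYC library cells), held most UMIs of every member. It took 75.0% and 75.7% of the Cybb UMIs of the control and MYC libraries, 68.9% and 67.3% of Cyba, 83.5% and 82.3% of Ncf1, 76.1% and 72.8% of Ncf4 and 71.5% and 73.2% of Rac2. Of the kept UMIs of all genes, it held 52458709 of 119905786 in the control and 52055100 of 102740700 in the MYC library. This baseline differs, so the members' shares are not compared between the libraries.

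**Figure D1:**
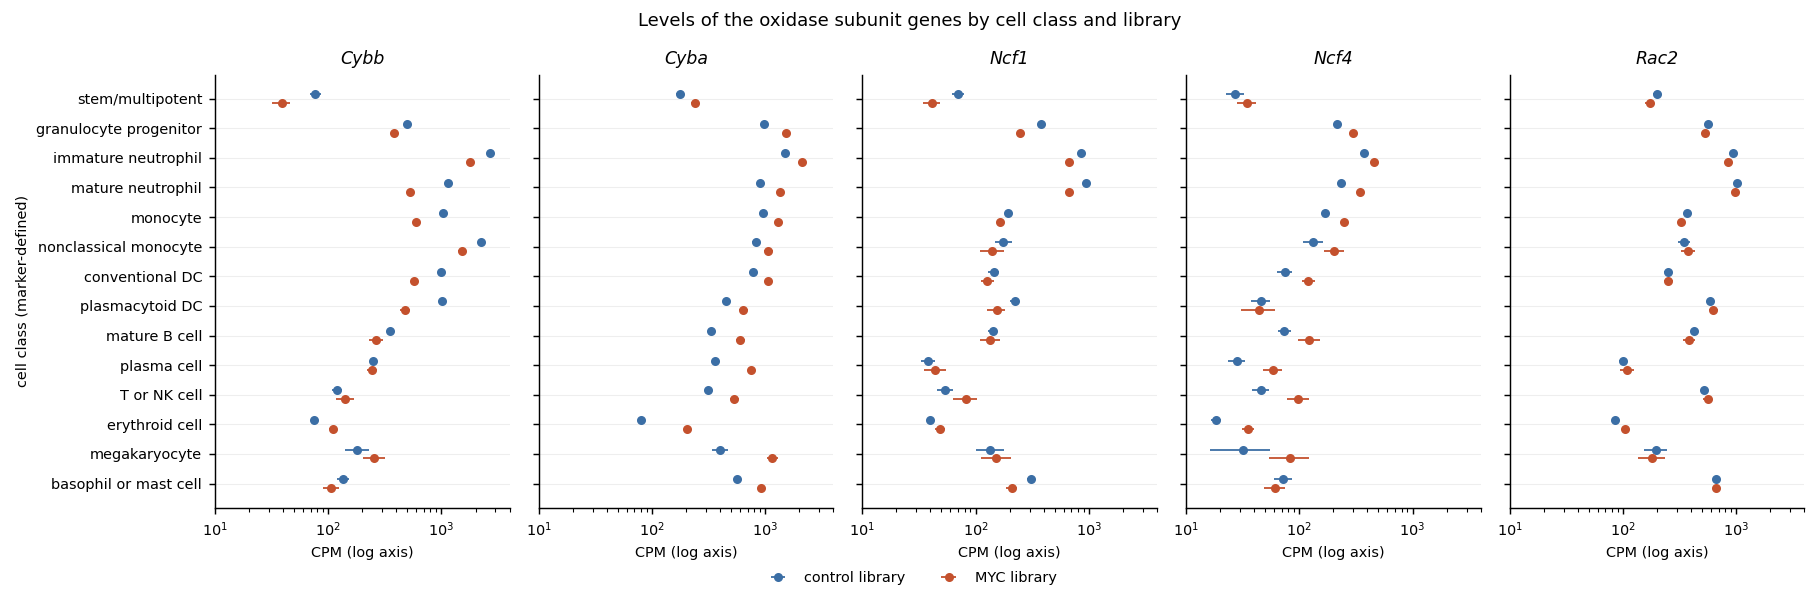
Level of each oxidase subunit gene (CPM, log axis) in 14 marker-defined cell classes of the control (blue) and MYC (orange) libraries, with 95% Poisson intervals for counting error. Immature neutrophils held the highest Cybb, Cyba and Ncf4 levels in both libraries, and the orange Cyba point lies to the right of the blue one in 14 of 14 classes.

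Cybb was highest in immature neutrophils of both libraries, at 2669 CPM (95% interval 2650 to 2689) for the control and 1802 CPM for the MYC library. Nonclassical monocytes came next, at 2236 and 1522 CPM, above classical monocytes at 1043 and 599 CPM. In the control, mature neutrophils stood at 1148 CPM, a level whose order against classical monocytes turned with the processing, and the intervals of classical monocytes, plasmacytoid dendritic cells (1006 CPM) and conventional dendritic cells (991 CPM) overlapped in that order. Granulocyte progenitors stood at 495 CPM and mature B cells at 352 CPM, whereas stem or multipotent progenitors (77.1 CPM) and erythroid cells (75.1 CPM) were lowest and did not differ beyond counting error. The control level in immature neutrophils was 35.5 times that in erythroid cells. The conventional dendritic class also had Mrc1 and Axl, 2 macrophage genes, among its leading genes.

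Cyba spanned a narrower range, from 81.0 CPM in erythroid cells to 1496 CPM in immature neutrophils of the control, an 18.5-fold span. Granulocyte progenitors (972 CPM) and monocytes (954 CPM) overlapped in their intervals, as did mature neutrophils (898 CPM) with nonclassical monocytes (826 CPM). Basophils or mast cells held 564 CPM, and the B, plasma, T or NK, megakaryocyte and plasmacytoid dendritic classes lay between 313 and 454 CPM.

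Ncf1 and Rac2 were the members with the highest control level in mature neutrophils, 941 and 1015 CPM, with immature neutrophils at 853 and 929 CPM. For Ncf1 this order turned with the processing (0.14, and -0.16 in cells under 5% mitochondrial UMIs). Among other classes the 2 genes parted. Ncf1 was at 195 CPM in monocytes and 308 CPM in basophils or mast cells of the control. Rac2, a GTPase of blood cells that also serves in lymphocyte signalling and cell movement, reached 519 CPM in T or NK cells, 585 CPM in plasmacytoid dendritic cells and 659 CPM in basophils or mast cells, all above its 366 CPM in monocytes. Ncf4 was highest in immature neutrophils (373 CPM), followed by mature neutrophils (236 CPM), granulocyte progenitors (214 CPM) and monocytes (169 CPM), each apart from the next in its interval, and was lowest in erythroid cells (18.4 CPM).

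Along the neutrophil lineage the members followed different courses, and each library was read on its own. From granulocyte progenitors over immature to mature neutrophils, Cybb stood at 495, 2669 and 1148 CPM in the control and at 379, 1802 and 531 CPM in the MYC library. Its level from progenitors to immature neutrophils was thus 5.39-fold higher in the control and 4.76-fold higher in the MYC library, and from immature to mature neutrophils 2.33-fold and 3.40-fold lower. Ncf1 was also higher by over 2-fold at the first step (log2 ratios of 1.17 and 1.44), but mature neutrophils held 941 and 667 CPM, within 0.14 and -0.01 on the log2 scale of the immature level. Rac2 stood at 567, 929 and 1015 CPM in the control and at 528, 844 and 984 CPM in the MYC library, with each step within 2-fold. Cyba and Ncf4 were highest in immature neutrophils of both libraries, also with each step within 2-fold, but the first Cyba step in the control was -0.05 in cells under 5% mitochondrial UMIs. Without the 20 most abundant genes in the total, the first steps of Cyba, Ncf4 and Rac2 in the control were 1.25, 1.43 and 1.34, and those of Ncf4 and Rac2 in the MYC library 1.30 and 1.35, all past 2-fold. The first Cyba step in the MYC library also passed 2-fold there, and was 1.17 with finer clustering. The first Ncf1 step was 0.79 and 0.97, under 2-fold, in cells under 5% mitochondrial UMIs. As first computed, the members past 2-fold at the first step were 2 of 5 in each library, where 7.78% of control genes and 9.52% of MYC library genes with at least 50 UMIs were higher by as much. At the second step Cybb alone was lower by 2-fold, against 21.7% and 18.5% of genes. The size of this Cybb difference varied over the alternatives: on the log2 scale it ran from -1.93 to -0.88 in the control and from -2.03 to -0.59 in the MYC library.

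**Figure D2:**
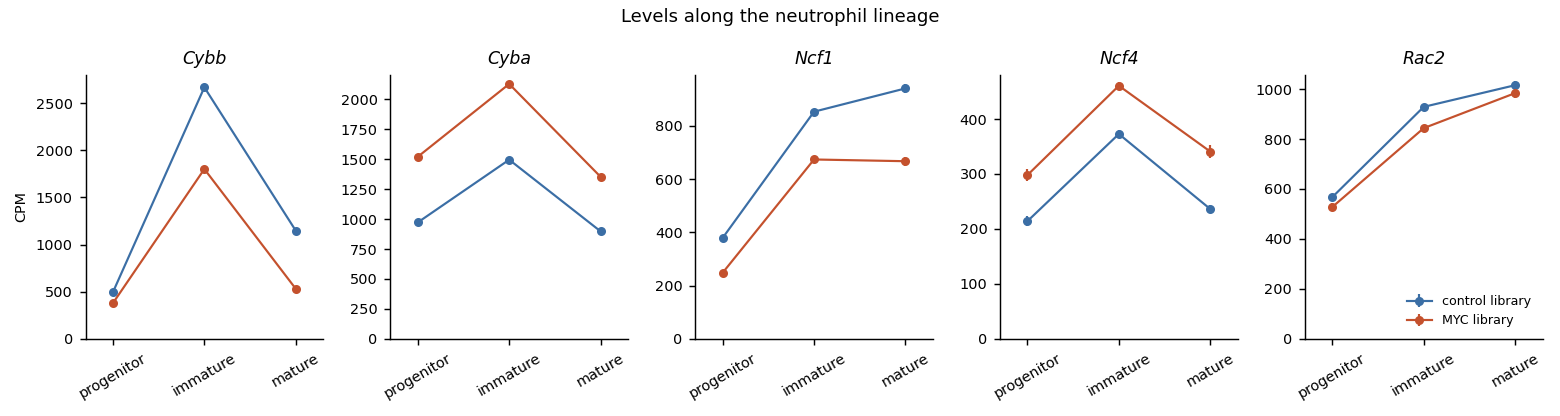
Level (CPM, linear axis from 0) of each member along the neutrophil stages (granulocyte progenitors, immature, mature) of the control (blue) and MYC (orange) libraries; bars are 95% Poisson intervals, mostly smaller than the points. Cybb peaks at 2669 and 1802 CPM in immature neutrophils, while Rac2 is highest in mature neutrophils, at 1015 and 984 CPM.

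Monocytes and mature neutrophils differed in the cytosolic members. Ncf1 was 195 CPM in monocytes against 941 CPM in mature neutrophils of the control, and 166 against 667 CPM in the MYC library, which is 4.82-fold and 4.02-fold lower. Rac2 was 2.77-fold and 3.01-fold lower in monocytes. Ncf4 was lower by less (log2 ratios of -0.48 and -0.47, but -0.98 and -1.13 without the 20 most abundant genes), and Cyba stood at 954 against 898 CPM in the control and 1305 against 1353 CPM in the MYC library. Its log2 ratios ran from -0.41 to 0.55 and from -0.71 to 0.12 over 8 alternatives. For Cybb the log2 ratios were -0.14 and 0.18, and no order can be read for either gene, since those of Cybb ran from -0.64 to 1.13 in the control and from -1.06 to 0.60 in the MYC library. Of the 5 members, 2 were lower by at least 2-fold in monocytes of each library, against 13.1% of control genes and 11.9% of MYC library genes. These Ncf1 and Rac2 differences kept their direction in all 8 alternatives in both libraries.

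The libraries were compared class by class, which addresses how the oxidase genes stood in marrow with the MYC transgene. In the neutrophil lineage as a whole Cyba stood at 1221 CPM (control) and 1887 CPM (MYC library), which gave a log2 ratio of 0.63 (0.61 to 0.64). Cybb went the other way, at 1785 and 1329 CPM (log2 ratio -0.43, -0.44 to -0.41). Ncf4 followed Cyba in direction, at 301 and 411 CPM (0.45, 0.42 to 0.48), and Ncf1 followed Cybb, at 773 and 596 CPM (-0.38, -0.40 to -0.35). Rac2 was 873 and 810.4 CPM (-0.11, -0.13 to -0.09). The median log2 ratio of all 11778 genes with at least 50 UMIs in the lineage was -0.23, so that, relative to it, Cyba stood at 0.86, Ncf4 at 0.67, Rac2 at 0.12, Ncf1 at -0.15 and Cybb at -0.20. Under median-of-ratios scaling, which sets that median near 0, the Cybb and Ncf1 ratios were -0.17 and -0.12, and that of Rac2 turned to 0.15. Of the 5 members, Cyba alone was past 1.5-fold, against 2.93% of genes higher and 14.1% lower by as much, and its ratio was between 0.56 and 0.89 over 11 alternatives, past 1.5-fold in 6. Summed over the 5 genes, the lineage held 4953 and 5033 CPM. The stage mix of the lineage differed, with 2699 immature and 3566 mature neutrophils in the control and 3599 and 1894 in the MYC library. Pooled values thus also carry this mix. Cyba was 0.65, 0.51 and 0.59 in granulocyte progenitors, immature and mature neutrophils, and Cybb -0.39, -0.57 and -1.11. The summed level was 2627 and 2973 CPM in granulocyte progenitors, but 6320 and 5909 CPM in immature and 4238 and 3875 CPM in mature neutrophils.

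**Figure D3:**
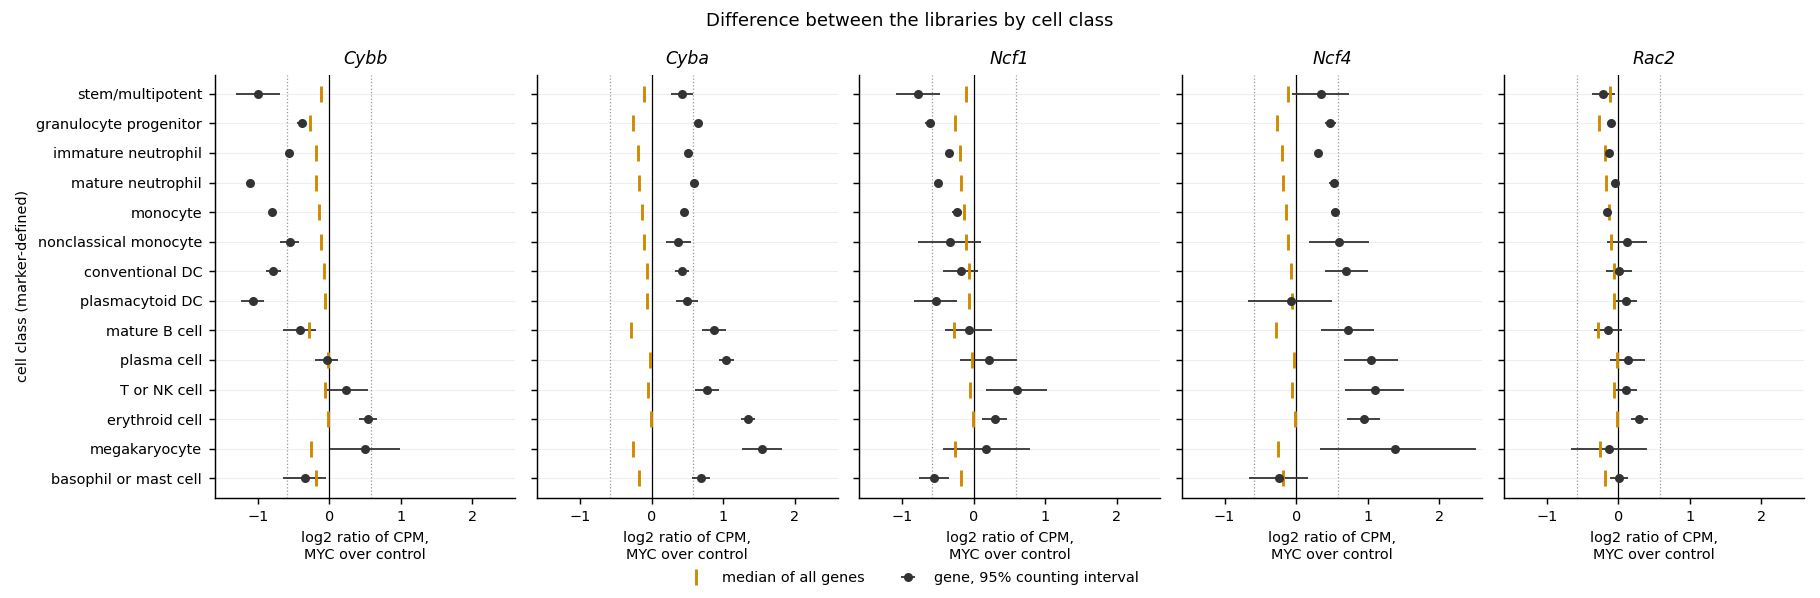
log2 ratio of CPM, MYC over control, for each member in 14 classes, with 95% counting intervals; dotted lines mark 1.5-fold and orange ticks the median of all genes tested in the class. Cyba lies right of 0 in 14 of 14 classes, Cybb left of 0 in 11, and Rac2 within 1.5-fold in all 14.

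Cybb was lower in the MYC library in 11 of 14 classes, and in 10 of these the interval excluded 0. It was past 1.5-fold in 5. The median log2 ratio of all genes was also below 0 in each class, from -0.28 in mature B cells to -0.01 in erythroid cells. Monocytes held 1043 CPM (control) and 599 CPM (MYC library) (log2 ratio -0.80, -0.83 to -0.77), and the ratio stayed past 1.5-fold in all 11 alternatives, between -0.98 and -0.64. The monocyte class was also made up differently, with 597 control and 956 MYC library cells in cluster 7 and 628 and 648 in cluster 8, and Cybb was -0.39 (579 and 441 CPM) in the former and -0.90 in the latter. Plasmacytoid dendritic cells stood at 1006 and 480.4 CPM (-1.07), conventional dendritic cells at 991 and 575 CPM (-0.78), and stem or multipotent progenitors at 77.1 and 38.8 CPM (-0.99, but -0.10 with cells classed by markers alone). Immature neutrophils, at 2669 and 1802 CPM, were just within 1.5-fold (-0.57, -0.58 to -0.55), and between -0.62 and -0.39 in the class's 4 clusters. Mature neutrophils held 1148 and 531 CPM (-1.11, -1.16 to -1.07), but this value turned to 0.66 when cells were limited to under 5% mitochondrial UMIs, where the class was drawn over other cells (2756 and 3108 in place of 3566 and 1894), and it was -0.04 with coarser and -0.19 with finer clustering. It is therefore read within clusters. In the 3 compared clusters of mature neutrophils, Cybb was 1693 and 1097 CPM in cluster 2 (-0.63), 426 and 419 CPM in cluster 4 (-0.03, -0.17 to 0.12) and 299 and 195 CPM in cluster 6 (-0.62). Erythroid cells, T or NK cells and megakaryocytes had higher Cybb in the MYC library, by 0.54, 0.24 (-0.07 to 0.54) and 0.50. None of these directions held in each alternative: the first 2 were -0.25 and -0.85 with doublets kept, and the last -0.89 in cells under 5% mitochondrial UMIs.

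Cyba was higher in the MYC library in 14 of 14 classes with intervals that excluded 0, and past 1.5-fold in 8. Of these calls, that in granulocyte progenitors held in only 6 of 10 alternatives and was lowest with finer clustering (0.39). Those in T or NK cells (0.47 with doublets kept) and basophils or mast cells (0.54 with the erythroid level taken off) held in 8 of 10. That in mature neutrophils (0.49 with the erythroid level taken off) held in 9 of 11. Granulocyte progenitors stood at 972 and 1521 CPM (log2 ratio 0.65, 0.61 to 0.68), immature neutrophils at 1496 and 2129 CPM (0.51), mature neutrophils at 898 and 1353 CPM (0.59) and monocytes at 954 and 1305 CPM (0.45). Outside the phagocytes, mature B cells held 332 and 606 CPM (0.87), T or NK cells 313 and 536 CPM (0.78), basophils or mast cells 564 and 911 CPM (0.69) and plasma cells 363 and 749.9 CPM (1.05). The ratio was highest in megakaryocytes, at 398 and 1159.7 CPM (1.54, 1.26 to 1.83, 59 and 61 cells, and 0.70 with coarser clustering), and in erythroid cells, at 81.0 and 206 CPM (1.34).

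Classes outside the phagocytes with steep Cyba ratios also held more neutrophil RNA in the MYC library. Camp, a granule gene of immature neutrophils, was 946 and 2184 CPM in erythroid cells (log2 ratio 1.21), 1883 and 4838 CPM in megakaryocytes, 1073 and 2367 CPM in plasma cells, 478 and 909 CPM in mature B cells and 1341 and 2767 CPM in T or NK cells. In basophils or mast cells it was 1930 and 1768 CPM. S100a8, S100a9, Ngp, Ltf and Retnlg were also higher in erythroid cells of the MYC library, by 0.53 to 1.14 on the log2 scale. The part of free RNA in the members' levels of these classes was not tested. With the erythroid level of the same library taken off as background, Cyba stood higher in mature B cells (0.68), T or NK cells (0.51), monocytes (0.33) and mature neutrophils (0.49), but in stem or multipotent progenitors the ratio turned from 0.43 to -1.56.

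**Figure D4:**
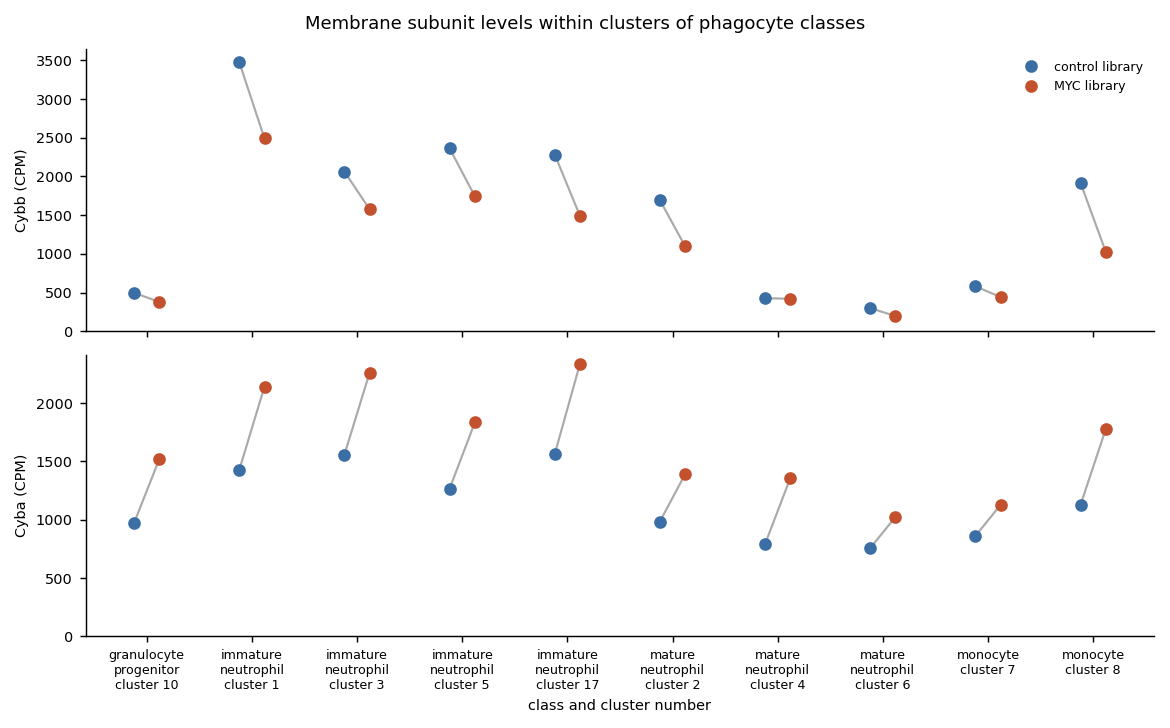
Cybb (top) and Cyba (bottom) levels in CPM, linear axes from 0, within the 10 clusters of the granulocyte progenitor, neutrophil and monocyte classes that had at least 50 cells in each library; grey lines join the control (blue) and MYC (orange) library, and intervals are not drawn. Cybb is lower and Cyba higher in the MYC library in 10 of 10 clusters, with Cybb nearly level in cluster 4 (426 and 419 CPM).

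Clusters hold cells of more alike state than classes do, so the comparison was repeated within them. In the 10 clusters of granulocyte progenitors, neutrophils and monocytes, Cybb was lower in the MYC library in 10 and its interval excluded 0 in 9. Log2 ratios ran from -0.90 to -0.03, with the widest gap in monocyte cluster 8 (1916 and 1024 CPM). Cyba was higher in 10 of 10, between 0.39 and 0.78, and each interval excluded 0. Ncf1 was lower in 10 of 10, between -0.67 and -0.15, and Ncf4 higher in 10 of 10, between 0.20 and 0.95, again with each interval apart from 0. Rac2 was lower in 9 and ran from -0.30 to 0.03. Clusters of 1 library share that library, so these counts are not independent repeats.

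Ncf1, the organiser that docks the cytosolic complex on p22phox, was lower in the MYC library in 10 of 14 classes, with 7 intervals that excluded 0. Granulocyte progenitors stood at 379 and 248 CPM (log2 ratio -0.61, -0.68 to -0.54) and stem or multipotent progenitors at 70.4 and 41.0 CPM (-0.78), both past 1.5-fold. The first was -0.34 under median-of-ratios scaling and the second -0.01 in cells under 5% mitochondrial UMIs. Mature neutrophils held 941 and 667 CPM (-0.50), immature neutrophils 853 and 674 CPM (-0.34) and monocytes 195 and 166 CPM (-0.24). The medians of all genes in these classes were -0.18, -0.19 and -0.14. T or NK cells, with only 147 and 70 UMIs, stood at 53.9 and 81.8 CPM (0.60, 0.17 to 1.02), a value that turned to -0.45 with doublets kept.

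Ncf4, whose protein binds a lipid of the phagosome membrane, was higher in the MYC library in 12 of 14 classes, with 11 intervals that excluded 0, and past 1.5-fold in 6. Its T or NK cell (45.8 and 98.1 CPM, 1.10) and plasma cell (28.3 and 58.5 CPM, 1.05) ratios stayed past 1.5-fold in 10 of 10 alternatives. Granulocyte progenitors stood at 214 and 298 CPM (0.48), immature neutrophils at 373 and 461 CPM (0.31), mature neutrophils at 236 and 341 CPM (0.53) and monocytes at 169 and 246 CPM (0.54). In conventional dendritic cells it was 74.1 and 120.5 CPM (0.70, but 0.41 with cells classed by markers alone), and in nonclassical monocytes 133 and 202 CPM (0.60, 0.18 to 1.02, but -0.10 with cells classed by markers alone). The calls in mature B cells (0.33) and erythroid cells (0.52) were lost with doublets kept. Plasmacytoid dendritic cells (45.9 and 43.9 CPM) and basophils or mast cells (71.8 and 60.6 CPM) were the exceptions. Megakaryocytes had 12 and 25 UMIs, under the minimum of 50, and this was the 1 of 70 member values left without a call.

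Rac2 was within 1.5-fold in all 14 classes. It was lower in 7 and higher in 7, and 8 intervals included 0. Mature neutrophils held 1015 and 984 CPM (-0.05, -0.08 to -0.01), monocytes 366 and 327 CPM (-0.16) and T or NK cells 519 and 558 CPM (0.10). The Rac2 direction followed the scaling: the MYC library was lower in 1 class with median-of-ratios scaling and in 13 without the 20 most abundant genes in the total.

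The number of members past 1.5-fold was set against all genes of each class. In mature neutrophils 1 of 5 was higher and 1 of 5 lower, against 6.51% and 17.3% of genes. The lower one was Cybb, which stayed past 1.5-fold in only 5 of 11 alternatives and was -0.03 in cluster 4. In granulocyte progenitors 1 of 5 was also higher and 1 lower, against 4.10% and 21.5%. In immature neutrophils no member was past 1.5-fold, against 5.47% higher and 12.7% lower. Monocytes and plasmacytoid dendritic cells each had 1 lower member, against 13% and 21.0% of genes, and stem or multipotent progenitors had 2, against 11.4%. In conventional dendritic cells 1 member was higher and 1 lower, against 14.6% and 17.1%. In nonclassical monocytes 1 was higher, against 12.9%. Among the other classes, 2 members were higher in mature B cells against 7.02% of genes, 2 in plasma cells against 17.1%, 3 in T or NK cells against 11.3% and 2 in erythroid cells against 13.1%. Megakaryocytes had 1 of 4 with enough UMIs against 23.4%, and basophils or mast cells 1 against 8.37%.

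The opposite directions within the membrane pair and within the cytosolic pair were also read as UMIs of one gene per UMI of the other, in which the total of the class cancels. Each pair sets a gene mostly seen higher above over one mostly seen lower, and Rac2 was not paired. The direction of these ratios therefore restates the values above and is no separate support. In the neutrophil lineage control cells had 0.684 Cyba UMIs per Cybb UMI and MYC library cells 1.42, a 2.08-fold shift (log2 1.05, 1.03 to 1.07). The ratio was higher in the MYC library in 14 of 14 classes and in each alternative that could be computed. It was 0.915 and 2.18 in monocytes and 0.561 and 1.18 in immature neutrophils. Mature neutrophils stood at 0.782 and 2.55, a shift of 1.71 on the log2 scale and 0.29 in cells under 5% mitochondrial UMIs. Ncf4 UMIs per Ncf1 UMI were 0.390 and 0.690 in the lineage (log2 0.82, 0.79 to 0.86). This ratio was higher in 14 of 14 classes, with 11 intervals that excluded 0, and it turned in 3 classes with the erythroid level taken off.

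**Figure D5:**
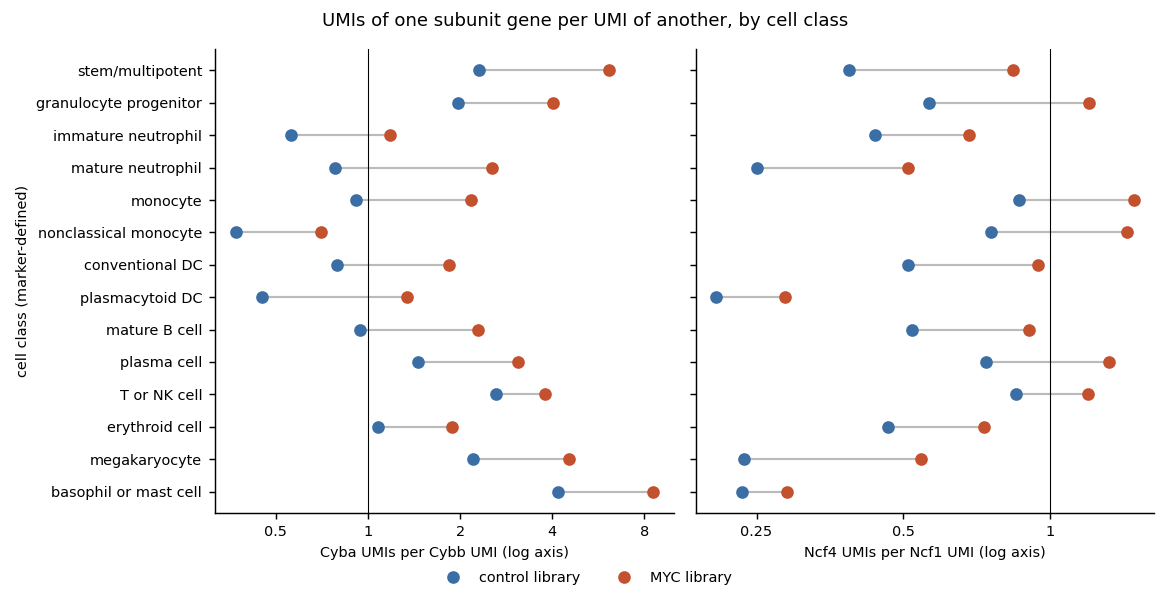
UMIs of Cyba per UMI of Cybb (left) and of Ncf4 per UMI of Ncf1 (right) in 14 classes, on log axes; blue is the control and orange the MYC library, and the vertical line marks 1; intervals are not drawn. The orange point lies right of the blue one in 14 of 14 classes in both panels, and in immature neutrophils Cyba per Cybb is 0.561 and 1.18.

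Shares of cells with a UMI were compared after each cell was thinned to 1000 UMIs. Of immature neutrophils, 90.6% of control and 79.2% of MYC library cells then had a Cybb UMI, and 75.0% and 85.0% a Cyba UMI (unthinned 99.1% and 97.1%, and 98.1% and 98.2%; 36 and 65 shallower cells left out). In monocytes the Cybb shares were 65.5% and 46.6% and the Cyba shares 62.1% and 70.8% (unthinned 97.8% and 95.3%, and 98.6% and 98.9%). In mature neutrophils Ncf1 was seen in 54.7% and 43.9% of thinned cells and Ncf4 in 20.4% and 29.2% (unthinned 86.2% and 83.7%, and 54.2% and 71.8%). Erythroid cells, the class taken to lack these genes, had Cybb in 5.29% and 11.7%, Cyba in 4.79% and 16.3%, Ncf1 in 3.43% and 6.06% and Ncf4 in 1.79% and 3.12% of thinned cells, at median depths of 10784 and 7856 UMIs against 8539 and 8161 in immature neutrophils. The neutrophil and monocyte shares were all above these.

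Before thinning, UMIs of all 5 members were seen in 87.9% of control and 83.8% of MYC library immature neutrophils, 80.0% and 76.2% of granulocyte progenitors and 37.9% and 43.3% of mature neutrophils, at median depths of 8539 and 8161, 19893 and 19178.5, and 3750 and 4653.5 UMIs. After thinning these shares were 6.57% and 6.31%, 1.28% and 0.632%, and 2.75% and 2.04%, so mature neutrophils then stood above progenitors, and the MYC library no longer stood above the control in mature neutrophils. Thinned immature neutrophils had 3.12 and 3.03 members per cell on average, mature neutrophils 2.36 and 2.35, granulocyte progenitors 1.88 and 1.91, monocytes 1.90 and 1.80 and erythroid cells 0.228 and 0.473. The summed level of the 5 genes was 6320.2 and 5909 CPM in immature neutrophils, 4238 and 3875 CPM in mature neutrophils and 2726 and 2644 CPM in monocytes.

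Other genes of the pathway were counted from lists in the neutrophil lineage. Of 7 assembly and partner genes, 1 was lower past 1.5-fold and none higher, where 14.1% of all genes in the lineage were lower and 2.93% higher by as much, and the median log2 ratio was -0.09 against -0.23 for all genes. The lower gene was Hvcn1, the proton channel that balances the charge moved by the oxidase, at 111.5 and 62.1 CPM (-0.84, -0.91 to -0.78), and it was also lower in monocytes (27.9 and 14.3 CPM, -0.96). The GTPase gene Rac1 was 192 and 199 CPM (0.05), and Arhgdib, which holds Rac proteins in the cytosol, 2309 and 2210.1 CPM (-0.06). Of 14 upstream regulators, 6 were lower past 1.5-fold and none higher, against the same 14.1% and 2.93% of genes, with a median of -0.52. They were the kinase gene Prkcd (179.6 and 114 CPM, -0.65), Prkcb (-0.66), the PI3-kinase genes Pik3cg (-0.74) and Pik3cd (-0.60), the Rac exchange factor Tiam1 (-0.77) and Map3k5 (-0.84). Under median-of-ratios scaling the regulators' median was -0.26 and none of the 14 stayed past 1.5-fold, and that of the assembly genes turned to 0.17, with Hvcn1 no longer past 1.5-fold. The most abundant regulators were Pak2 (264 and 221 CPM, -0.26), Prkcd and Dock2 (165 and 114 CPM, -0.53).

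Of 5 NADPH supply genes with enough UMIs none was past 1.5-fold in the lineage, where 14.1% of all genes were lower and 2.93% higher by as much. Their median was -0.35, against -0.23 for all genes, and -0.09 under median-of-ratios scaling. Within the lineage, 3 of the 5 were lower in granulocyte progenitors (median -0.60), against 21.5% of genes, and none in immature or mature neutrophils. Under median-of-ratios scaling none of the 5 was past 1.5-fold in granulocyte progenitors. Transketolase (Tkt, 1033 and 780.1 CPM, -0.40), transaldolase (Taldo1, 748 and 767 CPM, 0.04) and 6-phosphogluconate dehydrogenase (Pgd, 420.2 and 329 CPM, -0.35) were the most abundant. Of 7 transcription factor genes with enough UMIs 2 were lower and none higher, with a median of -0.47, against 14.1% of all genes lower, 2.93% higher and a median of -0.23, but none was past 1.5-fold and the median was -0.21 under median-of-ratios scaling. Spi1, which encodes PU.1, was 395 and 419 CPM (0.08) and Cebpe 426 and 436 CPM (0.03), whereas Cebpa was 31.7 and 17.4 CPM (-0.86) and Irf8 had a ratio of -0.76. Elf1, the next most abundant, was 68.1 and 47.6 CPM (-0.52). Of the 9 genes of other NADPH oxidases, Noxo1 alone reached 50 UMIs over the lineage, at 0.610 and 0.384 CPM.

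The genes most like each member in pattern were sought among 2521 genes over 28 points, the 14 classes in each library, by Pearson r of log2(CPM + 1). The points of a library share its depth and free RNA, and r is a description. Fgr (0.87) and Ceacam1 (0.86) were among the nearest to Cybb. Ncf4 (0.87) was nearest to Cyba, before Prdx5 (0.86) and Hp (0.81), and Hp (0.90), Mgst1 (0.89) and Prdx5 (0.88) were nearest to Ncf4. Ncf1 had Cyb5r4 (0.90) and Itgam (0.88), and Rac2 had Rcsd1 (0.95), Gpsm3 (0.90) and Pak2 (0.90). The partner of Cybb in the cytochrome, Cyba, ranked 32 among the genes nearest to Cybb (0.71), and Cybb ranked 48 for Cyba. Rac2 and Cybb were the least alike pair of members (0.49).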

How the data were processed

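Single-cell UMI counts of 2 mouse bone marrow libraries were analysed. The authors deposited raw UMI counts (whole numbers, a row per gene and a column per barcode), and the file headers name Cell Ranger 6.0.0; GRCm38 (mm10) and Seurat are named in the submitters' processing notes, and how barcodes were called is not given in the sources used here. Total counts per library are in the report, and no deposited column went unused.

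Cells with at least 500 UMIs, 200 genes and under 10% mitochondrial UMIs were kept. Scrublet in scanpy 1.11.5 (expected rate 0.8% per 1000 barcodes, set after the default called none in one library) removed 701 control (4.53%) and 251 MYC library (1.95%) cells as doublets, below the expected 13.7% and 11.6%, so doublets remain. Leiden clustering (leidenalg 0.10.2, resolution 1, 15 neighbours, 30 components, 2000 variable genes) gave 27 clusters. Clusters were named from fixed markers with at least 3 detected in 10% of cells, unless another class had more markers among the 10 leading genes. A low-UMI cluster (median under the library median divided by 3) needed 2 own markers there, which was decided once the clusters had been seen. Macrophages (21 and 645 cells) and B progenitors (409 and 16) had too few cells in one library to compare.

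UMIs were summed per class and library and scaled to CPM. Intervals, all at 95%, are exact Poisson for levels, conditional binomial for ratios, Wald for pair ratios and Clopper-Pearson for shares. A gene was called past 1.5-fold (2-fold between stages) with at least 50 UMIs over both groups and a pseudocount of 1 CPM. The interval script was tested on simulated counts with known folds. Members, lists and markers were chosen with earlier results of these data known. Named genes were all members, the 3 most abundant of each list and those past 1.5-fold, and the 3 genes most like each member with a mean of at least 50 CPM. A few genes that this rule names are not reported here. Annotation was GENCODE vM21, which matched 99.6% of features.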

Additional observations from a re-analysis of the deposited data

Results flagged for a closer look

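Of the 5 members, 3 stood on opposite sides of 0 in different classes with counting intervals that excluded 0, given here as log2 ratios of CPM, MYC over control; the differences between classes were not tested. Cybb was -1.11 in mature neutrophils and 0.54 in erythroid cells, where Camp was also higher in the MYC library. Neither side held in each alternative: with doublets kept the erythroid value was -0.25, and the neutrophil value was 0.66 when cells had to be under 5% mitochondrial UMIs. Within the erythroid class Cybb was 0.50 in cluster 9, 1.36 in cluster 15 and 0.12 (-0.13 to 0.36) in cluster 18. Ncf1 was -0.78 in stem or multipotent progenitors and 0.60 in T or NK cells, but -0.01 in the former with cells under 5% mitochondrial UMIs and -0.45 in the latter with doublets kept. Rac2 was -0.21 in stem or multipotent progenitors and 0.29 in erythroid cells, the latter -0.05 with doublets kept, and the former near 0 with cells classed by markers alone.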

How the results depend on the processing

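Of the 70 member values by class, 40 kept their sign in each alternative run, and 19 of the 22 past 1.5-fold did. By member these were 13 of 14 classes for Cyba, 10 for Ncf4, 8 for Cybb, 8 for Ncf1 and 1 for Rac2. Of the values past the fold threshold, those that turned were Cybb in mature neutrophils with cells under 5% mitochondrial UMIs (0.66), Ncf4 in nonclassical monocytes with cells classed by markers alone (-0.10), Ncf1 in T or NK cells with doublets kept (-0.45) or by markers alone (-0.11), and the control Cybb ratio of mature neutrophils to granulocyte progenitors (-0.53 with cells under 5% mitochondrial UMIs). Values within 1.5-fold also turned, among them Cybb in erythroid cells (-0.25) and T or NK cells (-0.85) and Rac2 in erythroid cells (-0.05) with doublets kept, Cybb in megakaryocytes (-0.89) with cells under 5% mitochondrial UMIs, and Cyba in stem or multipotent progenitors (-1.56) with the erythroid level taken off. The cause was not tested. The count of classes with lower Rac2 was 1 with median-of-ratios scaling and 13 without the 20 most abundant genes, against 7. Of the 40 stage values 28 kept their sign. The equal-weight mean over clusters and the removal of the erythroid level were chosen after seeing the data. No paired analysis was possible because there is 1 library per group, and no library could be left out. Classes with few cells (59 and 61 megakaryocytes, 71 plasmacytoid dendritic cells of the MYC library) limit what can be seen there.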
